A study of Mus musculus with 6 samples.

Results

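The oligodendrocyte lineage genes described here are 9 named genes, and all 9 were found by symbol among the 34591 gene rows of each count table. They were chosen by name with their levels in these same 6 libraries, and the difference between the groups, already known, so levels and differences are given as descriptions and are not tested. They fall into transcription factors and a surface marker present from the progenitor stage on (Olig1, Olig2, Sox10 and Cspg4), Bcas1 and Gpr37 of differentiating cells, and the mature myelin genes Mbp, Mog and Mag. The RNA was from mouse brain carrying modelled WNT medulloblastoma, a hindbrain tumour with active WNT signalling: 3 libraries are labelled sh2-Ift88, for a short hairpin RNA against the cilium transport gene Ift88, and 3 are labelled control. The labels give no strain, allele, age, Cre driver or promoter of the hairpin for either group, and they do not say whether libraries came from separate animals, so the spread between libraries may in part be technical.

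Oligodendrocytes make the myelin sheaths of the central nervous system. Their progenitors carry the basic helix-loop-helix factors OLIG1 and OLIG2, the SOX factor SOX10 and the surface proteoglycan NG2, which Cspg4 encodes. On leaving the cell cycle they pass through a short premyelinating stage marked by BCAS1, and then make the proteins of compact and adjacent myelin, among them MBP, MOG and MAG. WNT signalling through TCF7L2 is known to act on the timing of this differentiation. Several members are not restricted to the lineage: pericytes also make NG2, Schwann cells and melanocytes make SOX10, and neurons make GPR37.

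Gene counts summed to between 26802618 and 33772559 per library. Levels are given as CPM, counts relative to the library total after TMM scaling, a correction for RNA composition. There were 3 libraries (sh2-Ift88 2, sh2-Ift88 3 and control 2) with reads in more than 100 olfactory receptor genes, against 24 to 38 such genes in the others. The scaling factor of sh2-Ift88 3 was 0.598, against 1.05 to 1.24 in the rest, so its CPM values lean on the scaling. Ift88 itself was at 14.7, 16.01 and 14.4 CPM in the libraries labelled sh2-Ift88 and at 13.8, 19.7 and 13.7 CPM in the controls, so the groups overlapped and the targeted transcript does not check the labels. All directions given here rest on those labels. WNT target genes were detected in every library, without a non-tumour library to set them against: their summed level over Axin2, Lef1, Wif1, Nkd1 and Apcdd1 was 4685, 3402 and 4080 CPM in sh2-Ift88 libraries and 4964, 2763 and 3158 CPM in controls.

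Sequence upstream of the transcription start is shown for Gpr37 and Mog, a pair whose levels went different ways across the libraries. Both are the 250 bases before the start on the gene's own strand, from RefSeq on build GRCm38.p6, and capitals mark an E-box (CANNTG, the kind of site that OLIG factors bind) or a SOX core (ACAAT), searched on both strands.
Gpr37, chr6:25689981-25690230, minus strand: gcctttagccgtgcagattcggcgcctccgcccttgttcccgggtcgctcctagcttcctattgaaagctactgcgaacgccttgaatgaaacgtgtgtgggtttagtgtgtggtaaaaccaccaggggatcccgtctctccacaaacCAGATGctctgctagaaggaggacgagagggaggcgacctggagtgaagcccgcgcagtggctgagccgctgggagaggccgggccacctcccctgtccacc
Mog, chr17:37023399-37023648, minus strand: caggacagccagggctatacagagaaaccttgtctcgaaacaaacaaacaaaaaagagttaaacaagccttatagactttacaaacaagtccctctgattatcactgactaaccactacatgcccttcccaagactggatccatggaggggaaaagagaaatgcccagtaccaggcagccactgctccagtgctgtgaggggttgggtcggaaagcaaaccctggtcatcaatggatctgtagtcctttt
The Gpr37 window held 1 E-box, which begins 102 bases before the start, and no SOX core. The Mog window held neither. Of 27025 windows of the same length, 66.08% held an E-box and 28.25% a SOX core, so a match is common, and the count tables do not measure binding.

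Bcas1 was the member with the clearest gap between the groups. Its level was 41.2, 26.5 and 39.99 CPM in sh2-Ift88 libraries 1, 2 and 3, against 3.24, 5.59 and 8.12 CPM in controls 1, 2 and 3. Every sh2-Ift88 library thus stood above every control. After TMM scaling, the lowest sh2-Ift88 library had more than 3 times the level of the highest control. In bulk tissue, fewer cells of a type cannot be told apart from less RNA of a gene per cell, and this holds for each level given here. The group means were 35.9 ± 8.17 CPM in sh2-Ift88 libraries and 5.65 ± 2.44 CPM in controls (SD, n = 3 each), which gives a log2 fold change of 2.67 (SE 0.41). Libraries sh2-Ift88 1 and 3 could not be told apart by counting error (95% Poisson intervals of 39.1 to 43.4 and 37.0 to 43.2 CPM). Library sh2-Ift88 2 (24.7 to 28.4 CPM) lay below both. This order rested on the scaling. With library totals alone, sh2-Ift88 3 was lowest of the group, at 23.9 CPM against 43.2 and 28.9 CPM. The highest control was then at 10.1 CPM. The gap was present among the 3 libraries rich in olfactory receptor reads, at 26.5 and 39.99 CPM in sh2-Ift88 2 and 3 against 5.59 CPM in control 2. It was present among the others too, at 41.2 CPM in sh2-Ift88 1 against 3.24 and 8.12 CPM in controls 1 and 3.

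Gpr37, a G protein-coupled receptor that restrains the last steps of oligodendrocyte differentiation in mice, was also higher in all sh2-Ift88 libraries, with a narrow margin. It was at 45.7, 76.1 and 21.4 CPM in sh2-Ift88 libraries and at 14.4, 17.1 and 7.14 CPM in controls. The means were 47.7 ± 27.4 CPM in sh2-Ift88 libraries and 12.9 ± 5.16 CPM in controls (SD, n = 3 each), which gives a log2 fold change of 1.89 (SE 0.53). The separation rested on the scaling of sh2-Ift88 3: with library totals alone that library was at 12.8 CPM, below controls 1 and 2 at 15.4 and 18.9 CPM, so the groups then overlapped. With the same change Bcas1 was at 43.2, 28.9 and 23.9 CPM in sh2-Ift88 libraries and at 3.46, 6.17 and 10.1 CPM in controls, still without overlap.

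**Figure D1:**
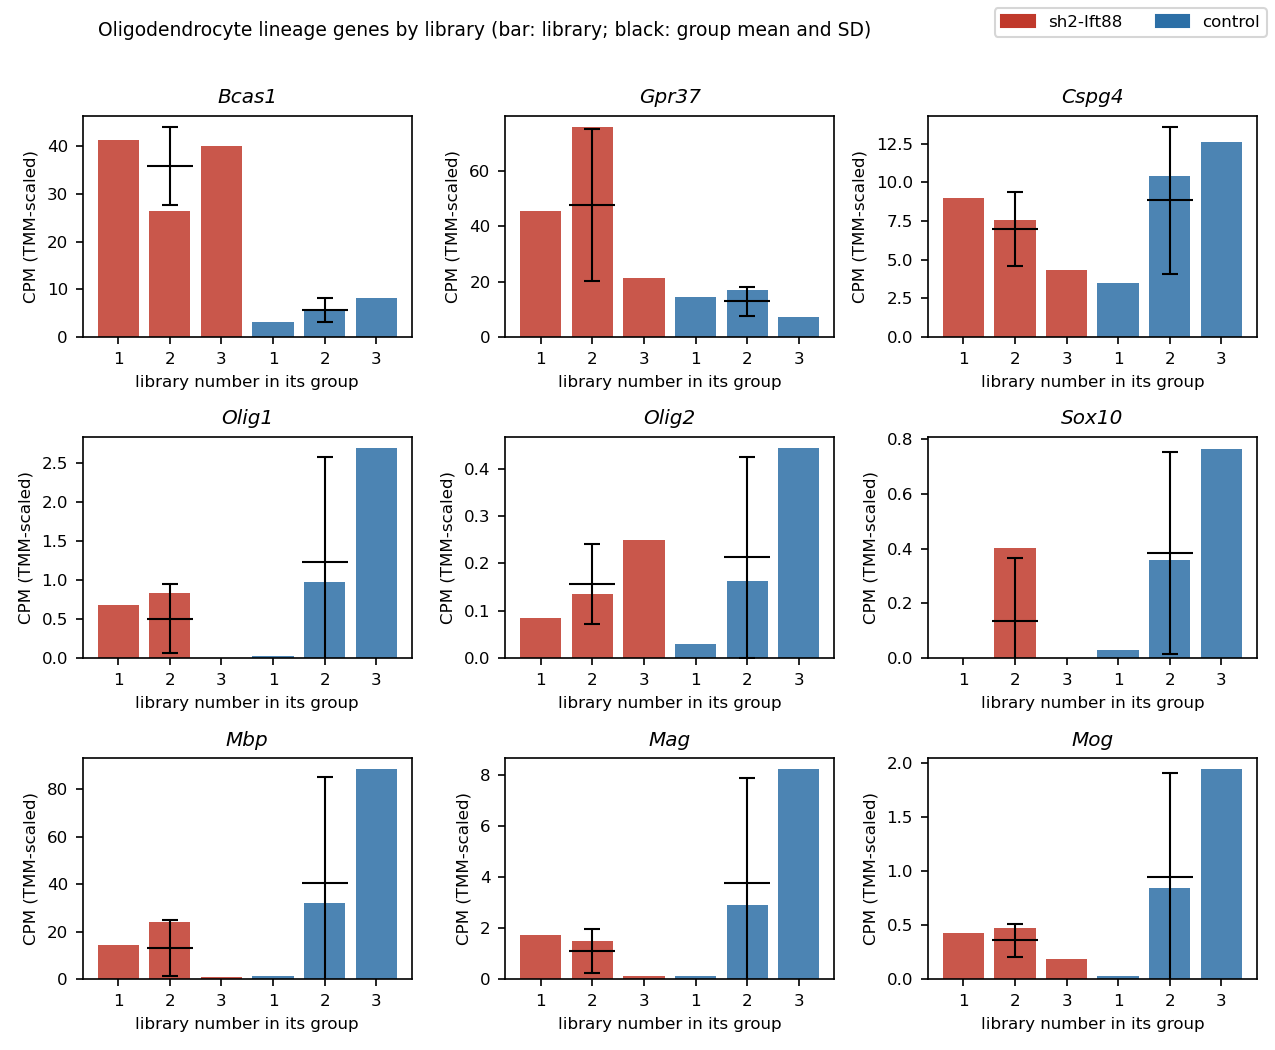
Level of each of the 9 genes in CPM (vertical axis, from 0) in each library (bars, numbered within the group), with the group mean and SD in black; SD bars that would pass below 0 end at the axis. Bcas1 and Gpr37 stand higher in all 3 sh2-Ift88 libraries, while Mbp, Mag, Mog and Olig1 are highest in control 3 and close to 0 in sh2-Ift88 3 and control 1.

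The lineage transcription factors had few reads, at most 109 in a library. Olig1 had 24, 25 and 0 counts in sh2-Ift88 libraries, against 1, 30 and 109 in controls. Olig2, which specifies the lineage, had 3, 4 and 4 counts in sh2-Ift88 libraries and 1, 5 and 18 in controls, too few to enter the fit. Sox10, needed for terminal differentiation and the switching on of myelin genes, had 0, 12 and 0 counts in sh2-Ift88 libraries and 1, 11 and 31 in controls. The groups overlapped for each of the 3 factors, and each was highest in control 3. A count of 0 allows up to 3 counts: this is 0.0848 CPM for Sox10 in sh2-Ift88 1, and 0.187 CPM for Sox10 and for Olig1 in sh2-Ift88 3, where counting error is the only error covered.

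Cspg4 was present in all libraries at a middling level. It was at 9.01, 7.55 and 4.37 CPM in sh2-Ift88 libraries and at 3.48, 10.4 and 12.6 CPM in controls, and the groups overlapped. Its highest library had 3.63 times the level of its lowest, the smallest such range among the 7 members detected in every library. Mural cells also express it: the 10 markers of pericytes and smooth muscle were detected in all libraries, with a summed level of 314 to 350 CPM in sh2-Ift88 libraries and 157 to 481 CPM in controls. Their part in the Cspg4 level was not tested.

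The mature myelin genes varied widely among libraries of the same group. Mbp, the basic protein that compacts the sheath, was at 14.5, 24.2 and 0.873 CPM in sh2-Ift88 libraries and at 1.12, 32.3 and 88.6 CPM in controls. Mag, an adhesion protein of the innermost myelin layer, was at 1.72, 1.48 and 0.125 CPM in sh2-Ift88 libraries and at 0.121, 2.92 and 8.25 CPM in controls. Mog, on the outer surface of the sheath, was at 0.424, 0.470 and 0.187 CPM in sh2-Ift88 libraries and at 0.0302, 0.844 and 1.95 CPM in controls. All 3 were highest in control 3 and next highest in control 2, and lowest in sh2-Ift88 3 and control 1. The groups overlapped for each, and the highest library of Mbp had 101 times the level of the lowest. Fitted log2 fold changes, from a fit that includes all genes, were -1.62 for Mbp (SE 1.42), -1.74 for Mag (SE 1.35), and -1.35 for Mog (SE 1.13). Without control 3 they were -0.34 for Mbp, -0.43 for Mag and -0.24 for Mog.

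Per kilobase of exon in GENCODE, an annotation of a later build than the authors' mm9, Bcas1, Gpr37 and Mbp, the 3 members with most RNA by this measure over all libraries, took different orders. In sh2-Ift88 1, Bcas1 was at 10.9 and Gpr37 at 7.53 CPM per kilobase, ahead of Mbp at 1.71. In sh2-Ift88 2 the order was Gpr37 at 12.5, Bcas1 at 7.01 and Mbp at 2.86, and in sh2-Ift88 3 it was Bcas1 at 10.6, Gpr37 at 3.53 and Mbp at 0.103 CPM per kilobase. In control 3, Mbp led at 10.5 CPM per kilobase, with Bcas1 at 2.15 and Gpr37 at 1.18. Control 2 had Mbp at 3.81, Gpr37 at 2.82 and Bcas1 at 1.48 CPM per kilobase, and control 1 had Gpr37 at 2.38, Bcas1 at 0.857 and Mbp at 0.132, the order of sh2-Ift88 2. Other members came between in some libraries. Cspg4, at 0.366 in sh2-Ift88 3 and 0.292 in control 1, stood above Mbp there, as did Mog at 0.110 in sh2-Ift88 3. In control 3, Mag at 2.03 and Olig1 at 1.24 stood above Gpr37. Among 29229 genes ranked this way, Bcas1 stood at the 87.1, 81.6 and 86.6 percentile in sh2-Ift88 libraries and at the 61.1, 63.8 and 67.6 percentile in controls.

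Of the 8 members that passed the filter on low counts, 0 were called by edgeR's quasi-likelihood test at an adjusted p of 0.05, where 0% of all 16768 genes tested were called; 541 genes, or 3.23%, had an unadjusted p under 0.05. Every sh2-Ift88 library stood above every control for 2 members, Bcas1 and Gpr37, where 4.7% of all genes tested did so. It stood below every control for 0 members, where 3.69% of genes did, and 8.39% of genes had groups without overlap in either direction. DESeq2 called 1 member, Bcas1, where it called 0.358% of genes (72 of 20091). edgeR without a filter called Bcas1 too, where it called 0.0194% of genes (6 of 31004), and limma-voom called 0 genes. Since this contrast was in view when the genes were named, these counts support nothing.

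Within a library, the ratio of 2 genes does not depend on how libraries are scaled, and gene length cancels when such ratios are compared between libraries. The ratio of Mag to Mbp changed little beside the levels themselves: there were 11.9, 6.09 and 14.3 Mag reads per 100 Mbp reads in sh2-Ift88 libraries, against 10.8, 9.05 and 9.31 in controls. The exact 95% interval of the ratio ran from 8.29 to 10.4 in control 3 and from 4.39 to 8.27 in sh2-Ift88 2, which was the only library whose interval lay outside that of control 3. Olig1 held 4.68, 3.46 and 0 reads per 100 Mbp reads in sh2-Ift88 libraries and 2.70, 3.02 and 3.04 in controls, and Mog 2.92, 1.94 and 21.4 in sh2-Ift88 libraries and 2.70, 2.62 and 2.20 in controls. The 21.4 of sh2-Ift88 3 rested on 3 Mog and 14 Mbp reads, with an exact 95% interval of 3.95 to 76.8, which lay above that of control 3 at 1.74 to 2.75. Olig1, Mag, Mog and Mbp thus varied together, apart from Mog in sh2-Ift88 3 and Mag in sh2-Ift88 2.

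Bcas1 and Gpr37 did not keep such a ratio. Bcas1 stood at 284, 109 and 4579 reads per 100 Mbp reads in sh2-Ift88 libraries, against 289, 17.3 and 9.17 in controls. For Gpr37 this ratio was 315, 314 and 2450 in sh2-Ift88 libraries, against 1289, 53.0 and 8.05 in controls. Were Bcas1 to follow Mbp as it did in control 3, the library with most of both myelin genes and lineage factors, sh2-Ift88 1, 2 and 3 would hold 1.33, 2.22 and 0.0801 CPM of Bcas1, against the 41.2, 26.5 and 39.99 CPM measured, which is 31.0, 11.9 and 499 times as much. Controls 1 and 2 held 31.5 and 1.89 times as much as so scaled, and control 1 was thus close to sh2-Ift88 1. The ratio of Cspg4 to Mbp departed as well, by 35.1 times in sh2-Ift88 3 and 21.8 times in control 1. Cspg4 was still highest in control 3 and lowest in sh2-Ift88 3 and control 1, as Mbp was, over a smaller range. In sh2-Ift88 3, 641 reads of Bcas1 and 343 of Gpr37 stood beside 0 of Olig1, 0 of Sox10, 4 of Olig2 and 14 of Mbp. The 2 genes also differed from each other: there were 90.2, 34.8 and 187 Bcas1 reads per 100 Gpr37 reads in sh2-Ift88 libraries, and 22.4, 32.6 and 114 in controls.

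**Figure D2:**
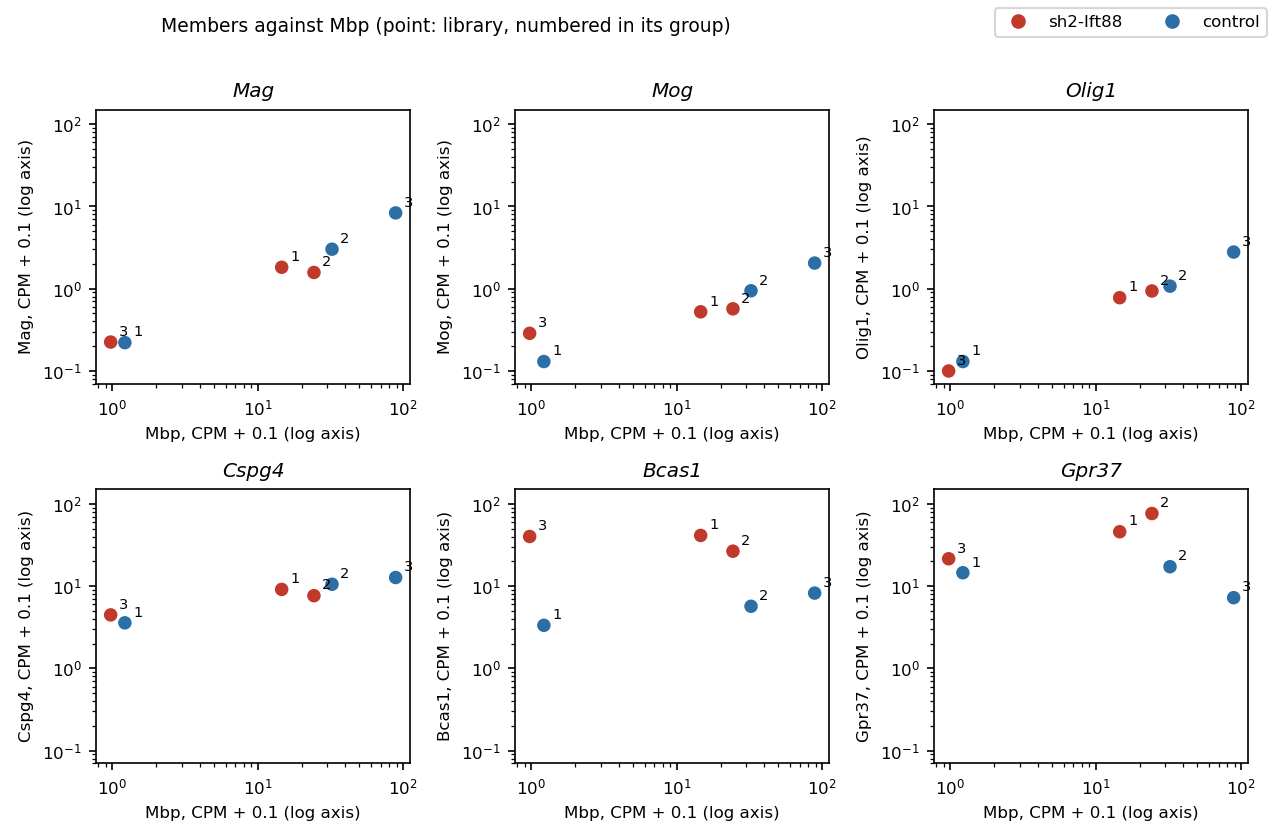
Level of 6 genes (vertical axes, CPM + 0.1, log scale) against that of Mbp (horizontal axes, CPM + 0.1, log scale) in each library, coloured by group and numbered within it. Mag, Mog and Olig1 climb with Mbp in both groups, Cspg4 does so over a smaller range, and Bcas1 at 39.99 CPM in sh2-Ift88 3 and 8.12 CPM in control 3 does not follow Mbp.

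The ratio of early to mature genes overlapped between the groups, with or without Bcas1. Summed over Olig1, Olig2, Sox10 and Cspg4 there were 0.587, 0.341 and 3.89 early reads per read of Mbp, Mog and Mag in sh2-Ift88 libraries, against 2.81, 0.331 and 0.167 in controls. The high values were those of sh2-Ift88 3 and control 1, the pair with least myelin RNA, and Cspg4 gave 70 of 74 and 115 of 118 of their early reads. Without Cspg4 the ratio was 0.0458, 0.0526 and 0.211 in sh2-Ift88 libraries and 0.0714, 0.0414 and 0.0395 in controls, the 0.211 and 0.0714 resting on 4 and 3 early reads. With Cspg4 and Bcas1 both counted as early, it was 3.06, 1.35 and 37.6 in sh2-Ift88 libraries and 5.36, 0.486 and 0.249 in controls, and the groups overlapped through control 1. As a group difference, the log2 ratio was 0.78 higher in sh2-Ift88 libraries without Bcas1, and turned negative without sh2-Ift88 3 or control 3. With Bcas1 it was 2.64 higher, and 1.10 to 3.95 higher over 9 alternatives. The pooled SD within groups was 1.99 log2 units without Bcas1 and 2.42 log2 units with it.

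Most markers of neurons, and some of astrocytes, varied with the myelin genes. The 16 markers of mature neurons summed to 307, 205 and 37.5 CPM in sh2-Ift88 libraries and to 59.9, 235 and 725 CPM in controls, and 16 were detected in each library except control 1, which had 15, with the granule cell gene Gabra6 at 0. Snap25, of the synaptic release machinery, was at 90.3, 44.2 and 1.06 CPM in sh2-Ift88 libraries and at 0.544, 67.9 and 199 CPM in controls. The neuron list did not move as one. Stmn2 was at 7.57, 5.74 and 1.06 CPM in sh2-Ift88 libraries and at 40.2, 8.77 and 61.3 CPM in controls. Syt1 was highest in sh2-Ift88 2, at 69.2 CPM, and Calb1 was at 16.1 CPM in sh2-Ift88 3, above sh2-Ift88 2 at 10.7 CPM. The other neuron markers were highest in control 3 and lowest in sh2-Ift88 3 and control 1. The 10 astrocyte markers summed to 758, 721 and 369 CPM in sh2-Ift88 libraries and to 316, 539 and 766 CPM in controls; of these, Aqp4 was at 47.2, 64.8 and 1.62 CPM in sh2-Ift88 libraries and at 0.151, 46.6 and 132 CPM in controls. The astrocyte list did not move as one: its most abundant gene, the gap junction gene Gja1, was at 479, 355 and 273 CPM in sh2-Ift88 libraries and at 259, 235 and 124 CPM in controls, lowest in control 3. Control 3 was thus highest and sh2-Ift88 3 and control 1 lowest for the neuron sum as for Mbp. The part of neurons and astrocytes in the myelin gene levels was not tested. Bcas1 was at 39.99 CPM in sh2-Ift88 3, where Snap25 and Aqp4 were under 2 CPM.

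**Figure D3:**
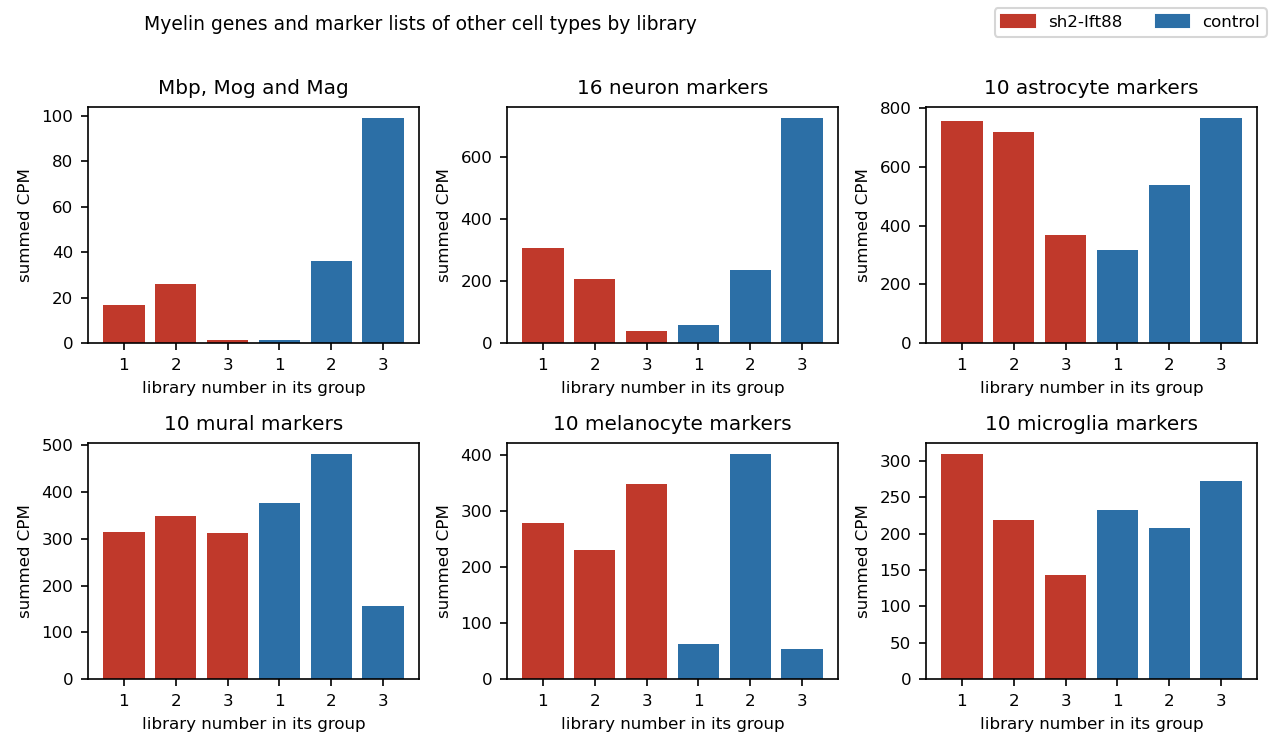
Summed CPM (vertical axes, from 0) of Mbp, Mog and Mag and of marker lists of other cell types in each library (bars, numbered within the group). The 16 neuron markers are highest in control 3, at 725 CPM, and lowest in sh2-Ift88 3 and control 1, as Mbp, Mog and Mag are, and the mural, melanocyte and microglia lists do not share that order.

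Markers of other cells that make a member were present in part. In the list for melanocytes, which make SOX10, the defining pigment genes Tyr and Tyrp1 stayed at or under 0.369 and 0.168 CPM. Mlana was at 0 except for 0.571 CPM in sh2-Ift88 2. Mitf, also listed, was at 38.5, 24.3 and 13.9 CPM in sh2-Ift88 libraries and at 12.4, 22.5 and 45.6 CPM in controls. Trpm1 was at 7.74, 11.5 and 14.1 CPM in sh2-Ift88 libraries and at 16.5, 6.01 and 4.67 CPM in controls. Dct, an enzyme of melanin synthesis that some neural tissue also makes, led the list, at 229, 189 and 318 CPM in sh2-Ift88 libraries and at 33.2, 372 and 0.198 CPM in controls; the whole list of 10 summed to 280, 230 and 348 CPM in sh2-Ift88 libraries and to 63.3, 402 and 53.3 CPM in controls, with 8 to 10 of 10 markers detected per library. In the list for Schwann cells, which make SOX10 too, the markers summed to between 27.7 and 32.9 CPM in sh2-Ift88 libraries and 22.5 and 45.4 CPM in controls, most of it Erbb3 and Prx. The microglia list summed to 143 to 309 CPM in sh2-Ift88 libraries and 208 to 273 CPM in controls, and the endothelial list to 97.2 to 149 and 79.6 to 155 CPM in the same order of groups. The 5 choroid plexus markers had no common order: Ttr, the transport protein of that tissue, was at 1388 CPM in sh2-Ift88 1 and under 1 CPM in the other libraries, while Otx2, a homeobox factor, was at 272, 308 and 260 CPM in sh2-Ift88 libraries and at 336, 427 and 31.3 CPM in controls.

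Further genes of oligodendrocyte progenitors showed no common direction. Of 14 such genes 12 were tested, 6 higher and 6 lower in sh2-Ift88 libraries and 0 called by edgeR's quasi-likelihood test. Their median log2 fold change was -0.14 beside -0.01 for all genes tested. The median turned positive under DESeq2, limma-voom and other filters. Under DESeq2 and without a filter it stayed below that of all genes, at 0.069 and 0.077 beside 0.12 in both. Pdgfra, the receptor that drives progenitor division, was at 248, 594 and 277 CPM in sh2-Ift88 libraries and at 342, 283 and 481 CPM in controls, far above the lineage factors, and fibroblast-like cells express it as well. Vcan, a matrix proteoglycan, was at 339, 623 and 125 CPM in sh2-Ift88 libraries and at 339, 832 and 157 CPM in controls. Cspg5 and Matn4, of the matrix too, overlapped between the groups, with log2 fold changes of 0.64 (SE 0.55) and 1.49 (SE 0.88). Nkx2-2, a homeobox factor that works beside Olig2, did not pass 0.250 CPM in any library. Chosen after its values were seen, the protocadherin Pcdh15 was at 6.08, 9.56 and 4.80 CPM in sh2-Ift88 libraries and at 1.15, 1.33 and 0.617 CPM in controls, and its log2 fold change of 2.72 (SE 0.54) was not called by edgeR's quasi-likelihood test (adjusted p = 0.9995). DESeq2 did call it (adjusted p = 0.00013), as 1 of the 14 genes of this list that it tested. In the lists below of newly formed, myelinating and regulator genes DESeq2 called 0 of 11, 24 and 19 tested. Over all genes it called 0.358% (72 of 20091).

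Genes of committed and newly formed oligodendrocytes, the stage that Bcas1 marks, were more often higher than lower, without a call. Of 12 such genes 10 were tested, 8 higher and 2 lower in sh2-Ift88 libraries and 0 called, with a median log2 fold change of 0.66. This was 0.10 within the 3 libraries rich in olfactory receptor reads and 0.28 within the others. Gpr17, a receptor of the premyelinating stage chosen after its values were seen, stayed at or under 0.130 CPM in all libraries. Enpp6, an early marker of new oligodendrocytes, was at 5.11, 0.772 and 0.312 CPM in sh2-Ift88 libraries and at 0.272, 0.844 and 0.321 CPM in controls, so its level was high in 1 library only, and this gene was chosen after its values were seen. The members of the list with most RNA are also made by many other cells. Fyn, a kinase of the Src family, was at 110, 44.2 and 70.5 CPM in sh2-Ift88 libraries and at 44.2, 49.2 and 29.0 CPM in controls, and the calcium channel Itpr2 at 47.2, 135 and 20.6 CPM in sh2-Ift88 libraries and at 52.6, 51.3 and 23.8 CPM in controls. Bmp4, a secreted factor, and Sirt2, a deacetylase of myelinating cells, had log2 fold changes of -0.41 (SE 0.52) and 0.01 (SE 0.22). Myrf, the factor that switches on myelin genes in postmitotic cells and was carried under its older symbol Gm98, was at 11.2, 18.3 and 9.30 CPM in sh2-Ift88 libraries and at 4.42, 11.95 and 3.83 CPM in controls. Tcf7l2, chosen after its values were seen, was at 8.70, 17.4 and 11.98 CPM in sh2-Ift88 libraries and at 5.69, 15.8 and 7.04 CPM in controls, and the groups overlapped for both.

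Other genes of myelinating oligodendrocytes were mostly lower, as Mbp was, and none was called. Of 24 such genes 18 were tested, 3 higher and 15 lower in sh2-Ift88 libraries and 0 called, with a median log2 fold change of -0.72. Without control 3 the median was 0.01, with 9 higher and 9 lower, so the lower values rested on that library. Mobp, of compact myelin, was at 6.08, 14.6 and 0.125 CPM in sh2-Ift88 libraries and at 0.121, 18.4 and 37.5 CPM in controls. Cnp, an enzyme of non-compact myelin, was at 26.8, 31.1 and 19.0 CPM in sh2-Ift88 libraries and at 16.8, 39.0 and 47.7 CPM in controls. Mal, a raft protein that many epithelia make, went another way, at 60.8, 60.6 and 118 CPM in sh2-Ift88 libraries and at 199, 62.7 and 23.7 CPM in controls. Apod, a lipid carrier, was at 14.0, 18.1 and 3.56 CPM in sh2-Ift88 libraries and at 5.93, 25.4 and 60.3 CPM in controls. The groups did not overlap for 2 of the 18 tested genes of the list, where 8.39% of all genes tested had groups without overlap. Both were chosen after their values were seen. The iron carrier gene Trf was at 5.76, 2.15 and 3.68 CPM in sh2-Ift88 libraries and at 1.21, 1.66 and 1.90 CPM in controls. The phosphatase inhibitor gene Ppp1r14a was at 7.35, 5.30 and 4.93 CPM in sh2-Ift88 libraries and at 4.11, 1.79 and 1.28 CPM in controls. With library totals alone both overlapped: sh2-Ift88 3 was at 2.20 CPM of Trf, below control 3 at 2.35 CPM, and at 2.95 CPM of Ppp1r14a, below control 1 at 4.39 CPM.

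**Figure D4:**
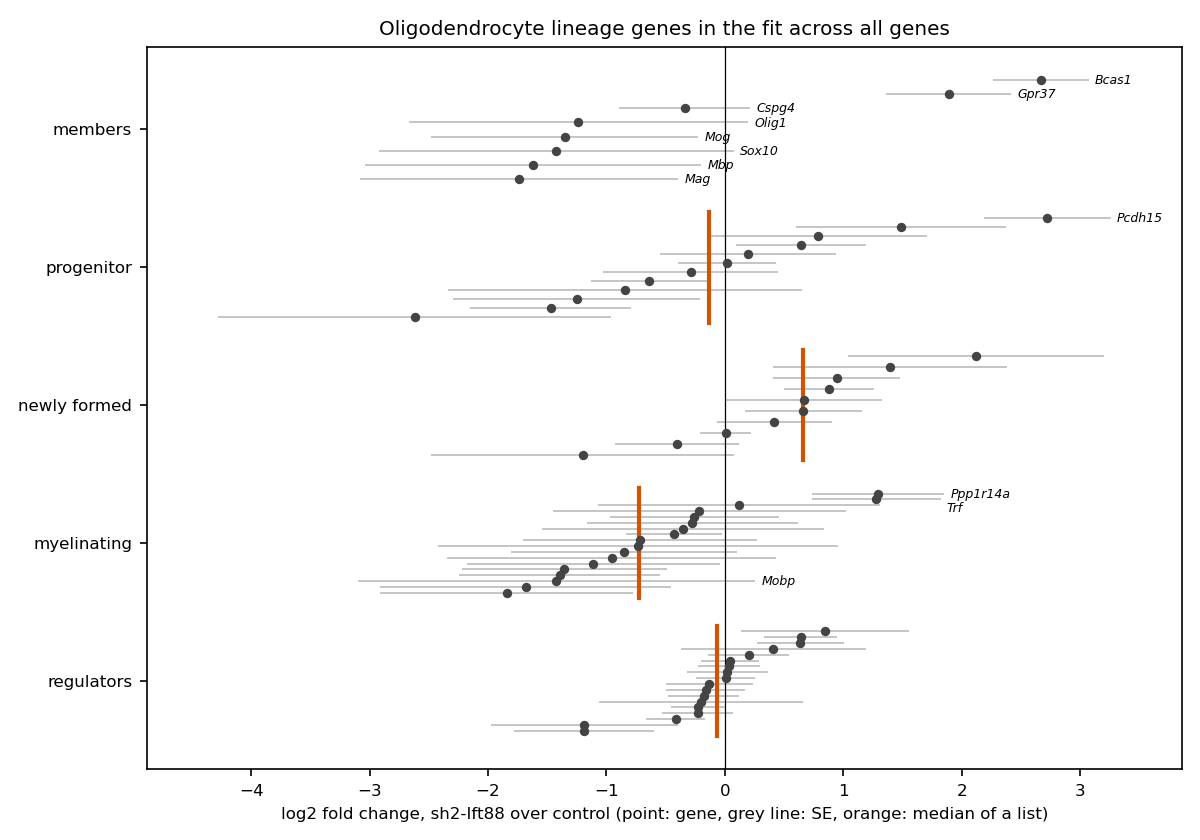
Fitted log2 fold change of sh2-Ift88 over control (horizontal axis) with its standard error (grey) for each tested gene of the lineage, by list (rows), with the median of each list outside the 9 members in orange. Bcas1 at 2.67 and Gpr37 at 1.89 are the members above 0; the other 6 tested are below it, of which Olig1 and Cspg4 turn to 0.06 and 0.01 when control 3 is left out. No gene shown was called by edgeR's quasi-likelihood test with the filter on low counts. Without a filter that test called Bcas1, and DESeq2 called Bcas1 and Pcdh15.

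Among regulators and relatives of the members, none was called by edgeR's quasi-likelihood test. Of 20 further regulators of the lineage 18 were tested, 9 higher and 9 lower and 0 called, with a median log2 fold change of -0.06, which turned positive with a term for libraries rich in olfactory receptor reads. The RNA-binding protein gene Qk, which stabilises myelin transcripts, was at 235, 238 and 203 CPM in sh2-Ift88 libraries and at 280, 261 and 250 CPM in controls, with no overlap and a log2 fold change of -0.23 (SE 0.23). Smarca4, the ATPase of a chromatin remodelling complex that works with OLIG2, was at 214, 135 and 146 CPM in sh2-Ift88 libraries and at 145, 177 and 160 CPM in controls. Gpr37l1, the paralog of Gpr37 known from astrocytes, was at 27.5, 13.4 and 0.624 CPM in sh2-Ift88 libraries and at 0.0907, 15.1 and 44.7 CPM in controls. Like Mbp it was highest in control 3 and lowest in sh2-Ift88 3 and control 1. Its order over the libraries was that of Snap25, with sh2-Ift88 1 next after control 3, where Mbp had control 2. Psap, whose product is a proposed ligand of GPR37, was at 574, 406 and 568 CPM in sh2-Ift88 libraries and at 256, 399 and 348 CPM in controls, with a log2 fold change of 0.63 (SE 0.30). These did not overlap, but with library totals alone Psap in sh2-Ift88 3 was at 340.0 CPM, below controls 2 and 3 at 440.2 and 431 CPM. Of 5 relatives 3 were tested, 1 higher and 2 lower.

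Of 6 genes flanking Bcas1 in that later annotation, 1 stood higher in every sh2-Ift88 library, where 4.7% of all genes tested did so. Another 1 stood lower in every one, where 3.69% did so, and the others overlapped between the groups or were near 0. With 6 genes, such counts say nothing particular about this stretch. Zfp217, a zinc finger gene, was at 35.6, 59.4 and 57.3 CPM in sh2-Ift88 libraries and at 60.4, 33.3 and 19.6 CPM in controls, and Pfdn4, a prefoldin subunit, at 36.4, 24.5 and 32.6 CPM in sh2-Ift88 libraries and at 26.6, 18.5 and 25.4 CPM in controls. Both overlapped between the groups. The gene model Gm17619, on the Zfp217 side, was at 3.36, 5.37 and 3.93 CPM in sh2-Ift88 libraries and at 1.88, 1.04 and 1.21 CPM in controls, with no overlap. Gm14269, on the other side, was at 2.52, 3.46 and 3.49 CPM in sh2-Ift88 libraries and at 4.93, 3.90 and 4.20 CPM in controls. A pair of antisense transcripts, Bcas1os1 and Bcas1os2, overlap Bcas1 and had no rows of their own, and no source used here gives the strand setting of the counting, so reads from them cannot be told apart from Bcas1.

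Genes whose pattern over the 6 libraries was most like that of Bcas1 were not other lineage genes. By Pearson's r of log2(CPM + 0.5) over 6 libraries, among the 3005 genes that averaged 1 CPM or more and spanned 2 or more log2 units, the nearest were Syce2, a synaptonemal complex gene (r = 0.99), Homer2, a scaffold of synapses (r = 0.99), the zinc finger gene Zfp534 (r = 0.95), 1700028P14Rik (r = 0.95) and the gene model Gm13051 (r = 0.95). Syce2 was at 5.48, 2.95 and 4.06 CPM in sh2-Ift88 libraries and at 0.151, 0.357 and 0.568 CPM in controls. Against Bcas1, r was 0.66 for Gpr37, 0.04 for Cspg4, -0.08 for Mbp, -0.12 for Olig1 and -0.14 for Mag. Nearest to Mbp were Aak1, Olfm3, Mobp and Kcnd2, with r from 0.992 to 0.997, of which Mobp is a myelin gene and Kcnd2 is a neuronal potassium channel. Snap25 and Cspg4 each reached 0.96 with Mbp, and Olig1 0.98, against -0.07 for Gpr37. For Olig2 the nearest were Cthrc1, Sp9, Tal1, Adamts20 and Akr1c14, with r from 0.95 to 0.96 among 3006 such genes, but with 1 to 18 Olig2 counts per library each of its levels carries a wide counting error. These values describe 6 libraries that differ in depth and in the levels of cell type markers, and carry no test.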

How the data were processed

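RNA-seq gene counts of 6 mouse tumour libraries were analysed, 3 labelled sh2-Ift88 and 3 control, with groups taken from the sample descriptions and replicate numbers given in accession order. Per the labels' protocols, a TruSeq kit that keeps strand was used on total RNA. BWA and build mm9 are named in the submitters' processing notes; counter, annotation and strand setting are not given in the sources used. The authors deposited unnormalized gene counts, 1 table per library, with 34591 gene rows. The 5 closing tally rows were left out throughout: unassigned reads took 18.8% to 39.5% of tallied reads, ambiguous reads 0.876% to 4.37% and reads that did not align 2.93% to 10.2%.

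Counts were fitted with edgeR 4.0.16 in R 4.3.3: filterByExpr left 16768 genes, libraries were TMM-scaled, and groups were compared by the two-sided quasi-likelihood test with robust=TRUE and Benjamini-Hochberg adjustment at 0.05. Before use, the fit was run on simulated data. Pass conditions were set only for a fixed dispersion, the spread between libraries, of 0.05. They therefore do not show what the test can detect at the spread of these libraries. CPM, ratios and intervals were computed from the counts. Intervals are 95% exact Poisson or Clopper-Pearson and cover counting error only. Exon lengths, gene order and IDs came from GENCODE on a later build and serve as approximate lengths and names. 1 list gene was matched through a RefSeq synonym, and promoter sequences were in the table for 5 of 9 members.

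The members, gene lists, tests and alternatives were chosen with earlier results of these data known. The genes named are the 9 members; from each further list the called genes or else up to 4 with the highest mean level; and the 5 genes most like Bcas1, Olig2 and Mbp. Some genes that this rule names are not reported here. Others are named as marker checks, as neighbours, or as chosen after their values were seen. Alternatives were DESeq2 1.42.0, limma-voom (limma 3.58.1), other scalings, filters and thresholds, a term for libraries rich in olfactory receptor reads, fits within those and within the other libraries, and leaving out each library.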

Additional observations from a re-analysis of the deposited data

How the results depend on the processing

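No paired analysis was possible because the labels carry no replicate numbers. The count of genes called was 0 with edgeR's quasi-likelihood test, 72 with DESeq2 and 6 without a filter, and 0 under the other alternatives run. Bcas1 stayed higher in sh2-Ift88 libraries under all 16 alternatives, with log2 fold changes from 2.29 to 3.02, as did Gpr37 with 1.38 to 2.22. Mbp, Mag, Mog and Sox10 stayed negative but moved widely: Mbp ran from -2.39 to -0.34, Mag from -2.30 to -0.43, Mog from -1.91 to -0.23 and Sox10 from -6.91 to -0.43, with Mbp, Mag and Sox10 nearest to 0 without control 3 and Mog with limma-voom. With each library left out in turn, Olig1 ran from -1.80 to 0.060 and Cspg4 from -0.72 to 0.0056, both positive without control 3, and Cspg4 was 0.11 within the libraries poor in olfactory receptor reads.

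The progenitor median was 0.069 with DESeq2, 0.15 with limma-voom, 0.077 without a filter and 0.029 with a filter of 1 CPM. The median of all genes was 0.12 with DESeq2, 0.02 with limma-voom, 0.12 without a filter and -0.01 with a filter of 1 CPM. With each library left out, the progenitor median ran from -0.71 to 0.30. The median of newly formed genes was 0.10 within the libraries rich in olfactory receptor reads and 0.28 within the others. The myelinating median ran from -1.35 to 0.0081 with each library left out. The regulator median was -0.34 with library totals alone, where the median of all genes was -0.33, and 0.0046 with a term for libraries rich in olfactory receptor reads. It was -0.26 within those and 0.11 within the others, and ran from -0.22 to 0.047 with each library left out. The log2 ratio of early to myelin genes ran from -0.26 without sh2-Ift88 3 to 1.97 without control 1, and was -0.07 without control 3. With Bcas1 counted as early it stayed positive, from 1.10 to 3.95. The cause of these shifts was not tested. Counting error limits Olig2, Sox10, Olig1 and Mog, and sh2-Ift88 3 and control 1 for Mbp and Mag.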
